A study of Mus musculus with 14 samples.

Results

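The genes described are 5 plasma membrane phosphate transporters of the mouse kidney and klotho: Slc34a1, Slc34a3, Slc20a1, Slc20a2, Xpr1 and Kl. They were taken by gene symbol from 23286 genes, all 6 were found in both deposited tables, and all 6 passed the filter on low values in each comparison. Bulk RNA-seq was made from the whole kidney of mice aged 9 weeks, taken 5 h after a sham operation or after ischemia-reperfusion (IR), in which the blood supply is stopped and then restored. The 12 libraries form 4 groups of 3: VE-PTPiKO IR, VE-PTPiKO sham, Control IR and Control sham. In VE-PTPiKO mice the target is VE-PTP, an endothelial phosphatase whose gene is Ptprb. The sources used here do not give the promoter or Cre driver behind it, the alleles that Control mice carry, or the strain and ischemia time of these mice. The comparisons ask how each transcript differed after IR in each genotype and whether that difference depended on the genotype.

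Phosphate is filtered at the glomerulus and mostly taken back in the proximal tubule, through sodium-coupled carriers of the SLC34 family in the brush border. SLC20 carriers also bring phosphate into cells and are present in most tissues, and XPR1 is the carrier that exports it. Klotho, made mainly in the distal tubule, turns FGF receptors into receptors for the bone hormone FGF23, and FGF23 and parathyroid hormone both lower phosphate uptake in the proximal tubule.

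Libraries held from 15427887 to 21296392 reads in genes. In VE-PTPiKO IR replicate 3, VE-PTPiKO sham replicate 2 and Control sham replicate 2, the nuclear RNA Malat1 took 1.96%, 1.15% and 1.02% of reads, against 0.327% to 0.564% in the other 9 libraries. Ptprb averaged 1702 ± 401 normalized reads in VE-PTPiKO IR, 2656 ± 519 in VE-PTPiKO sham, 2305 ± 364 in Control IR and 3564 ± 699 in Control sham (SD, n = 3). Its mean was lower in VE-PTPiKO in both conditions, but in limma 0 of 16339 genes passed between genotypes in either. These reads are totals over the gene, so they cannot tell whether some exons were deleted. Havcr1, a marker of injured proximal tubules, rose 5.89-fold in VE-PTPiKO (limma adjusted p = 0.00568) and 4.35-fold in Control (limma adjusted p = 7.11e-05). Lcn2, the other injury marker chosen, averaged 479 ± 177 normalized reads in VE-PTPiKO IR, against 151 ± 34.2 in VE-PTPiKO sham. It averaged 854 ± 574 in Control IR, where replicate 2 had 1516, against 99.9 ± 28.9 in Control sham. The labels do not say that libraries came from separate animals, so the spread behind each p-value is that between these 12 samples and may be technical. In whole-kidney RNA, fewer cells of a type and less RNA per cell cannot be told apart.

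Slc20a1 rose 4.13-fold after IR in VE-PTPiKO kidneys and 3.52-fold in Control kidneys, and it was the only one of the 6 genes past the threshold of a Benjamini-Hochberg adjusted p under 0.05 in limma. In VE-PTPiKO kidneys 1 of 6 genes passed, where 2.71% of 16401 tested genes did, and in Control kidneys 1 of 6 passed, where 11.5% of 16257 did. Slc34a1, by far the most abundant of the 6 per length, differed by log2 -0.10 in VE-PTPiKO and by log2 -0.00 in Control. The differences of Slc34a3, Slc20a2, Xpr1 and Kl ran from log2 -0.22 to 0.29 and did not pass. The median log2 difference over all tested genes was -0.009 in VE-PTPiKO and -0.013 in Control, while the median over the 6 genes was -0.039 in VE-PTPiKO and 0.133 in Control.

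**Figure D1:**
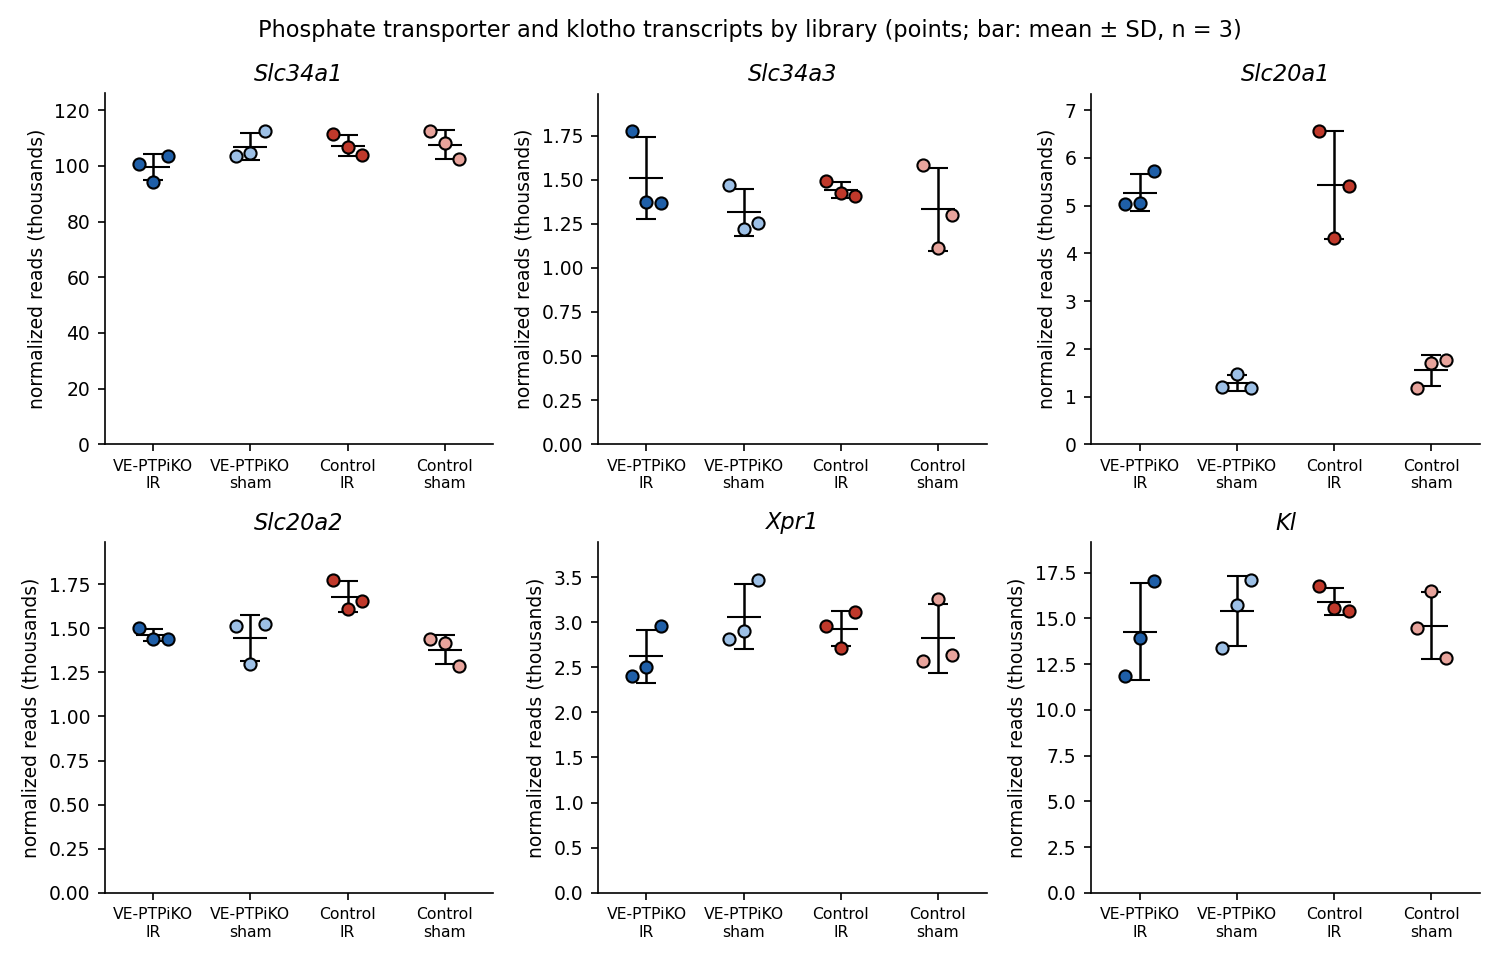
Normalized reads for each gene (axis in units of 1000) in each library (points), with group means and SD (bars, n = 3), by group on the x axis. The 6 IR libraries of Slc20a1 all lie above its 6 sham libraries, while Xpr1 and Kl overlap between IR and sham in both genotypes.

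Values per library are reads put on a common scale by size factors computed over all 12 libraries, and are called normalized reads. Differences within a genotype were fitted on the values deposited for that genotype, as log2 of the value plus 1.

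Slc34a1 encodes NaPi-IIa, the main sodium-phosphate carrier of the brush border in mice, and lies in mm10 on chromosome 13 from 55399648 to 55414695, plus strand. It had 100847, 94319.7 and 103506.5 normalized reads in VE-PTPiKO IR, against 103737.5, 104514 and 112458 in VE-PTPiKO sham. In Control IR it had 111411, 106659 and 103801, against 112514, 108108 and 102325 in Control sham. All 3 VE-PTPiKO IR libraries lay just below the 3 VE-PTPiKO sham libraries and the 3 Control IR libraries, while Control IR and Control sham overlapped throughout. Groups failed to overlap for 20.7% of tested genes in the VE-PTPiKO comparison. By limma the log2 difference after IR was -0.10 ± 0.18 (SE) in VE-PTPiKO, with a 95% confidence interval of -0.51 to 0.31 (adjusted p = 0.86), and -0.00 ± 0.16 in Control, with an interval of -0.36 to 0.36 (adjusted p = 0.999). Over both genotypes the interval was -0.27 to 0.16. Because limma draws the spread of a gene toward that of genes of similar level, these intervals rest on more than the Slc34a1 replicates. Within groups the SD of its log2 values was 0.0638, and the authors' SE was 0.1035 in VE-PTPiKO and 0.1056 in Control. In the exons of Slc34a1, 11.7% of bases overlap Pfn3 on the opposite strand, a gene listed at 0 in all 12 libraries.

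Slc34a3 encodes NaPi-IIc, the second carrier of this family in the brush border (chromosome 2, 25228897 to 25234234, minus strand). It had 1775, 1375 and 1369.9 normalized reads in VE-PTPiKO IR, against 1467, 1220.4 and 1254.5 in VE-PTPiKO sham. In Control IR the values were 1492, 1426 and 1408, against 1582, 1113 and 1302 in Control sham. The highest sham library exceeded the lowest IR library in each genotype. The log2 difference was 0.19 ± 0.15 in VE-PTPiKO (limma adjusted p = 0.624) and 0.13 ± 0.13 in Control (limma adjusted p = 0.612).

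Markers of the proximal tubule, where both SLC34 carriers are made, were read beside them. The summed level of 10 markers ran from 261639 to 305083 normalized reads in VE-PTPiKO IR, against 294083 to 379809 in VE-PTPiKO sham. It ran from 279002 to 288174 in Control IR, against 311453 to 382901 in Control sham, with no overlap in Control. In Control most of the lower mean sum lay in Lrp2 and Slc27a2. Lrp2 averaged 72027 in Control IR, against 105663 in Control sham, and Slc27a2 averaged 67120 in Control IR, against 87667 in Control sham. The Lrp2 mean in Control sham rested on replicate 2, a library high in Malat1, with values of 75069.9, 160216.5 and 81702.7. Lrp2 ran from 59057 to 87276 in Control IR, so its groups overlapped (limma adjusted p = 0.334). The median log2 difference of the 10 markers was -0.16 in VE-PTPiKO and -0.02 in Control, and 0 of 10 passed in limma within either genotype. No marker was at 0 in these groups, and over both genotypes 1 of the 10 passed, Slc27a2, which fell by 0.42 on the log2 scale (limma adjusted p = 0.0207). The part of this in the Slc34a1 and Slc34a3 values was not tested.

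Slc20a1 encodes PiT-1, a sodium-phosphate carrier found in most tissues (chromosome 2, 129198773 to 129211612, plus strand). It had 5040.2, 5053.5 and 5720.5 normalized reads in VE-PTPiKO IR, against 1202, 1473 and 1171 in VE-PTPiKO sham. In Control IR it had 6559, 4314 and 5415, against 1176, 1711.5 and 1758 in Control sham. Every IR library lay above every sham library, and the lowest IR library was 3.42 times the highest sham library in VE-PTPiKO and 2.45 times in Control. In the VE-PTPiKO comparison 20.7% of tested genes had groups that did not overlap, and in the Control comparison 29.5% did. The SD was 389 around a mean of 5271 in VE-PTPiKO IR, against 166 around 1282 in VE-PTPiKO sham, and 1123 around 5429 in Control IR, against 324 around 1548 in Control sham.

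In VE-PTPiKO kidneys Slc20a1 rose 4.13-fold (log2 2.05 ± 0.14 SE, 95% interval 1.73 to 2.36, limma adjusted p = 0.000237). Among Control kidneys the rise was 3.52-fold (log2 1.82 ± 0.18, interval 1.41 to 2.22, limma adjusted p = 0.000121). In size this difference ranked 113 of 16401 genes in VE-PTPiKO and 277 of 16257 in Control. Over both genotypes it was 3.80-fold (log2 1.93 ± 0.12, limma adjusted p = 4.02e-07), where 18.3% of 16339 genes passed. The authors' deposited table gives a Slc20a1 log2 difference of 1.947 with SE 0.1279 for VE-PTPiKO and 1.716 with SE 0.1542 for Control.

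Markers of leukocytes and of red cells were read beside Slc20a1. The summed level of 5 leukocyte markers was 1514 to 1916 normalized reads in VE-PTPiKO IR, against 1391 to 1566 in VE-PTPiKO sham. In Control IR it was 1766 to 1859, against 1359 to 1635 in Control sham, and 1 of the 5 markers, the macrophage gene Cd68, rose in each genotype. Over both genotypes 2 of the 5 rose. Of all tested genes 1.92% rose in VE-PTPiKO, 7.48% in Control and 10.2% over both genotypes. Cd68 rose 5.22-fold in VE-PTPiKO (limma adjusted p = 0.00308) and 5.61-fold in Control (limma adjusted p = 5.12e-05), averaging 178 reads in VE-PTPiKO IR, against 34.4 in VE-PTPiKO sham, and 190 in Control IR, against 33.4 in Control sham. Most reads of the sum came from Csf1r, which stood at log2 -0.11 in VE-PTPiKO (limma adjusted p = 0.773) and 0.05 in Control (limma adjusted p = 0.875). The 3 red cell genes summed to 1941 to 9042 in VE-PTPiKO IR, against 1238 to 2303 in VE-PTPiKO sham, and to 5431 to 9806 in Control IR, against 997 to 3063 in Control sham. All 3 red cell genes rose in Control and over both genotypes. Within VE-PTPiKO the log2 differences of these genes ran from 1.38 to 1.72 and did not pass. Their part in the Slc20a1 value was not tested. In the exons of Slc20a1, 13.1% of bases overlap opposite-strand genes, whose reads cannot be told apart from its own where counting ignored strand.

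The promoter windows of Slc20a1, the gene that rose, and of Slc34a1, the most abundant of the 6 per length, are shown to set the 2 genes side by side. Each runs from 250 bases before to 50 bases after an annotated start, 5′ to 3′ on the plus strand, from RefSeq on GRCm38.p6. Windows were found for 5 of the 6 genes. Slc20a1 has a second window at another annotated start, chr2:129206846-129207145, which is not printed; it has 52.0% GC and holds none of the motifs searched. Capitals mark matches to the motifs searched on both strands. These were the E-box CACGTG with its shorter part ACGTG inside it, the HNF1 half-site GTTAAT, the CCAAT box, the TATA letters TATAAA and the AP-1 motif TGANTCA.
Slc20a1, chr2:129198523-129198822: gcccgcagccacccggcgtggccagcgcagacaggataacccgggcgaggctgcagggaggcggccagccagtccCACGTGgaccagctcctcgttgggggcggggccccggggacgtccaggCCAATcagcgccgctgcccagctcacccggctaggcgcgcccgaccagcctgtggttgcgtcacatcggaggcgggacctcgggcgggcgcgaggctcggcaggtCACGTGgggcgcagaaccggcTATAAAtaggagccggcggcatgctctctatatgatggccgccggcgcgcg
Slc34a1, chr13:55399398-55399697: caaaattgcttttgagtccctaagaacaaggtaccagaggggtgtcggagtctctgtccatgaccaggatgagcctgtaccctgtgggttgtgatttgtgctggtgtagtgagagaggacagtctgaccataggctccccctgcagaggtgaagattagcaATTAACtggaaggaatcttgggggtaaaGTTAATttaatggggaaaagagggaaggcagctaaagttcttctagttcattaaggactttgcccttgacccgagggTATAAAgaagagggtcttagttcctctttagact

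The printed Slc20a1 window is GC-rich, at 73.0% against a median of 52.7% over 32851 windows, and holds CACGTG 175 and 22 bases before the start. CACGTG occurs in 7.15% of all windows and ACGTG in 19.6%. The window also holds CCAAT, found in 37.4% of windows, and TATAAA, found in 13.6%. The Slc34a1 window has 46.7% GC and holds GTTAAT, letters bound by the tubular factor HNF1, on each strand; 7.10% of windows hold it. Neither window holds TGANTCA, which occurs in 7.81% of windows. A match is a description of the letters and not a site.

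Slc20a2 encodes PiT-2, the second SLC20 carrier (chromosome 8, 22476700 to 22569616, plus strand). It had 1501, 1441.5 and 1442 normalized reads in VE-PTPiKO IR, against 1515, 1297 and 1523 in VE-PTPiKO sham. In Control IR it had 1776, 1606 and 1657, against 1437, 1416 and 1285 in Control sham. All 3 Control IR libraries lay above the 3 Control sham libraries, while the VE-PTPiKO groups overlapped. Groups failed to overlap for 29.5% of tested genes in the Control comparison and for 20.7% in the VE-PTPiKO comparison. The log2 difference was 0.02 ± 0.13 in VE-PTPiKO (limma adjusted p = 0.961) and 0.29 ± 0.10 in Control, with an interval of 0.06 to 0.51 (unadjusted p = 0.0167, limma adjusted p = 0.102). The authors' deposited table gives a Control log2 difference for Slc20a2 of 0.2816 with an adjusted p of 0.02172 and calls it significant. None of the 17 alternatives tried here called it, DESeq2 on recovered reads among them (adjusted p = 0.116), and their lowest adjusted p was 0.0636, with limma array weights.

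Xpr1 encodes the phosphate exporter (chromosome 1, 155275657 to 155417444, minus strand). In VE-PTPiKO IR it had 2405, 2501 and 2958 normalized reads, against 2811, 2899 and 3472 in VE-PTPiKO sham. The Control IR values were 2953, 2718.5 and 3108, against 2565, 3254 and 2639.6 in Control sham. IR and sham overlapped in both genotypes. The log2 difference was -0.22 ± 0.14 in VE-PTPiKO (limma adjusted p = 0.531) and 0.06 ± 0.12 in Control (limma adjusted p = 0.811). With libraries weighted by their own spread, the VE-PTPiKO value of Xpr1 became log2 -0.35 ± 0.11 and passed (limma adjusted p = 0.0404).

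Kl encodes klotho (chromosome 5, 150952607 to 150993817, plus strand). It had 11836, 13939.7 and 17066 normalized reads in VE-PTPiKO IR, against 13358, 15730.0 and 17124 in VE-PTPiKO sham. In Control IR it had 16780.2, 15585 and 15394, against 14469.5, 16500.4 and 12839 in Control sham. The groups overlapped in both genotypes, and VE-PTPiKO IR alone spanned most of the range seen over all 12 libraries. The log2 difference was -0.12 ± 0.18 in VE-PTPiKO, with an interval of -0.52 to 0.28 (limma adjusted p = 0.832), and 0.13 ± 0.13 in Control, with an interval of -0.14 to 0.41 (limma adjusted p = 0.584). Over both genotypes the interval was -0.23 to 0.24. The summed level of 7 markers of the distal convoluted and connecting tubule ran from 21087 to 26727 in VE-PTPiKO IR, against 23631 to 25287 in VE-PTPiKO sham, and from 19402 to 25364 in Control IR, against 22249.6 to 24358 in Control sham. Of these 7 markers 1 fell in VE-PTPiKO, where 0.793% of all tested genes fell. In Control 1 rose, Trpv5, and 2 fell, Klhl3 and Trpm6, where 7.48% of all tested genes rose and 4.02% fell. Most reads of the sum came from Calb1, Slc12a3 and Slc8a1, which did not pass in Control. No marker was at 0, and their part in the Kl value was not tested.

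**Figure D2:**
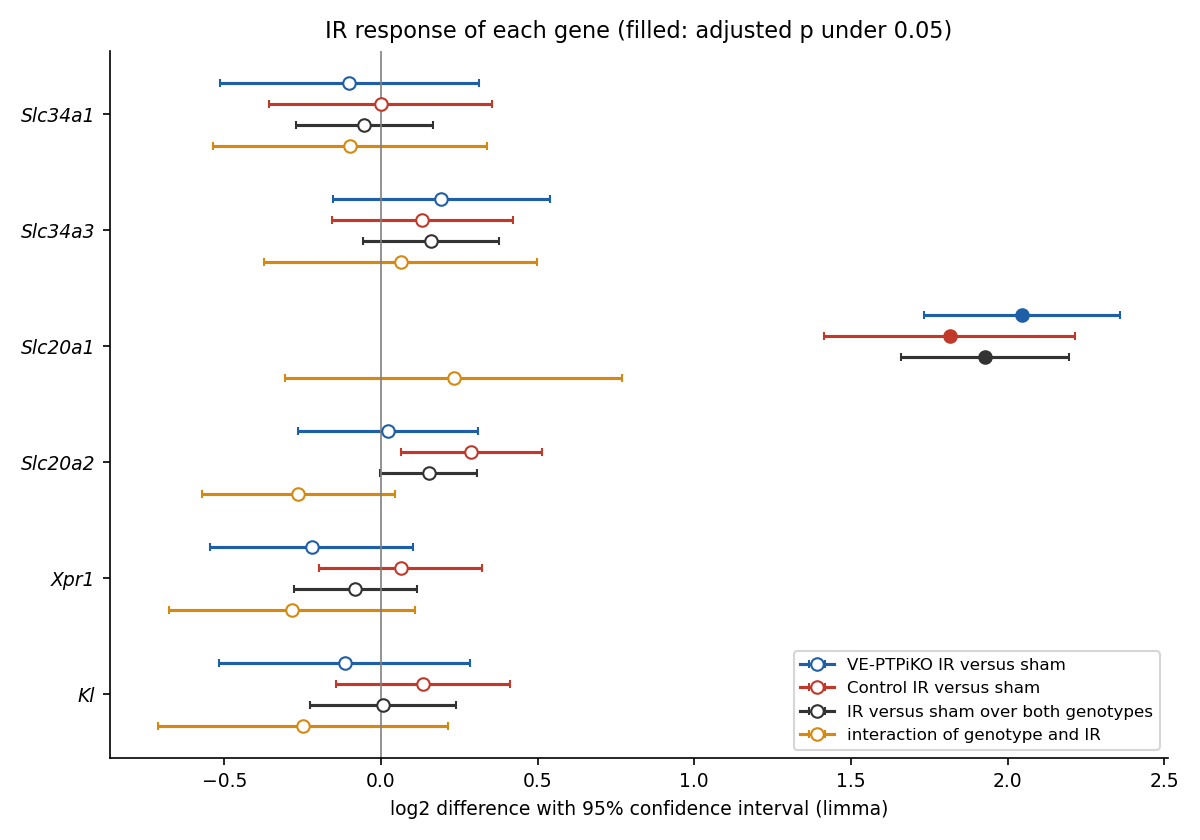
Log2 differences with 95% confidence intervals from limma, for VE-PTPiKO IR versus sham, Control IR versus sham, both genotypes together and the interaction (VE-PTPiKO response minus Control response); filled points passed an adjusted p under 0.05. The 3 filled points are those of Slc20a1, between log2 1.82 and 2.05, and its interaction interval runs from -0.31 to 0.77.

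The response to IR was then compared between genotypes. For Slc20a1 the VE-PTPiKO response minus the Control response was log2 0.23 ± 0.25, with an interval of -0.31 to 0.77. The interval for Slc20a2 was -0.57 to 0.04 around log2 -0.26 ± 0.14 (unadjusted p = 0.0864), and for Xpr1 it was -0.68 to 0.11 around -0.28 ± 0.18. For Kl it was -0.71 to 0.21 around -0.25 ± 0.21, while Slc34a1 stood at -0.10 ± 0.20 and Slc34a3 at 0.06 ± 0.20. None of the 6 genes passed (limma adjusted p = 0.999 for each), and neither did any of the 16339 tested genes, a called share of 0%. At an unadjusted p under 0.05 limma gave 432 genes and 0 of the 6, and edgeR and DESeq2 each called 0 genes.

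Direct comparisons of VE-PTPiKO with Control gave the same count. In IR, log2 differences of the 6 genes ran from -0.20 for Slc20a2 to 0.05 for Slc34a3, and in sham from -0.26 for Slc20a1 to 0.12 for Xpr1. By limma 0 of 6 passed in either, with 0% of 16339 genes called in IR and 0% in sham. At an unadjusted p under 0.05 there were 709 genes in IR and 267 in sham, and 0 of the 6 in both. edgeR called 0 genes in each and DESeq2 called 1 in each. For Slc20a2 all 3 VE-PTPiKO IR libraries lay below all 3 Control IR libraries, as they did for Slc34a1; 9.16% of tested genes did not overlap in that comparison. In sham the groups of both genotypes overlapped for all 6 genes, where 4.87% of tested genes did not overlap.

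Levels of different genes were compared as normalized reads per kb of exon, over the union of all annotated exons of each gene in GENCODE M21. This union was 17880 bases for Xpr1, 6216 for Slc20a2 and 2358 for Slc34a3, and which of these exons the kidney uses was not tested. The order therefore holds on this scale only. Without division by length, Xpr1 averaged 2857 normalized reads over the 12 libraries, above Slc20a2 at 1491 and Slc34a3 at 1399. Slc34a1 ranked 11 of 16332 genes on this scale, with 21291 ± 1011 in VE-PTPiKO IR, 22862 ± 1032 in VE-PTPiKO sham, 22945 ± 822 in Control IR and 23022 ± 1093 in Control sham (SD, n = 3). Kl came next, with 1531 ± 282, 1651 ± 204, 1707 ± 80.5 and 1565.5 ± 197 in the same 4 groups. In IR the order of the 6 genes was Slc34a1, Kl, Slc20a1, Slc34a3, Slc20a2 and Xpr1 in all 6 libraries.

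In sham kidneys Slc20a1 stood lower, beside Slc20a2. It averaged 945 ± 69.7 reads per kb in VE-PTPiKO IR, against 230 ± 29.8 in VE-PTPiKO sham, and 973 ± 201 in Control IR, against 277 ± 58.0 in Control sham. Slc20a2 averaged 235 ± 5.51, 232 ± 20.7, 270 ± 14.0 and 222 ± 13.2 in the same 4 groups. The ratio of Slc20a1 to Slc20a2 per kb was 4.02 ± 0.354 in VE-PTPiKO IR, against 1.00 ± 0.229 in VE-PTPiKO sham, and 3.58 ± 0.563 in Control IR, against 1.26 ± 0.315 in Control sham. In sham these neighbours did not differ beyond their spread, and either could be the higher one within a genotype. Slc34a3, at 639 ± 98.6, 557 ± 56.7, 611 ± 18.8 and 565 ± 99.97 in the same order, therefore stood below Slc20a1 in IR and above it in sham.

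**Figure D3:**
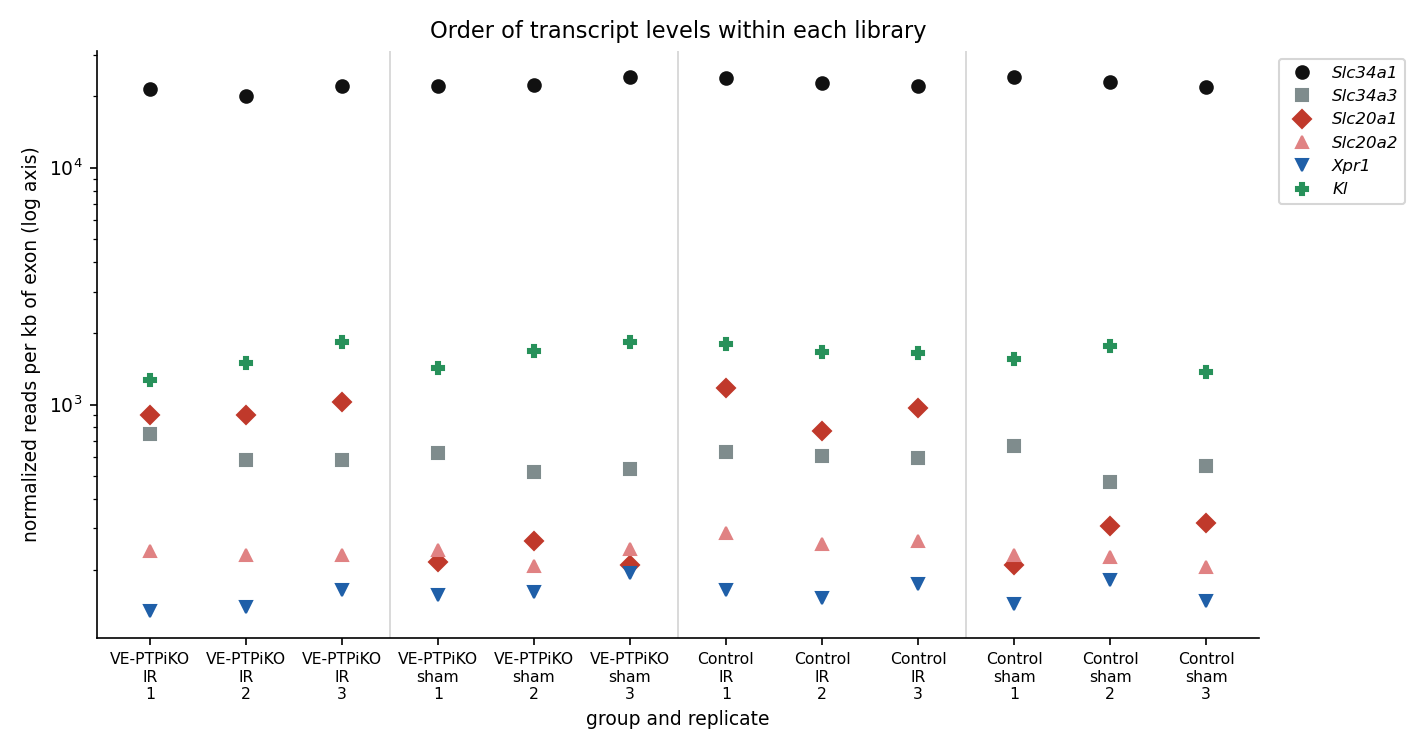
Normalized reads per kb of exon (log axis) for the 6 genes in each library, grouped by condition on the x axis. On this per-length scale Slc34a1 stays at the top and Xpr1 at the bottom in all 12 libraries. Slc20a1 lies above Slc34a3 in the 6 IR libraries and below it in the 6 sham libraries.

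Of the per-kb reads of the 5 transporters, Slc34a1 made up 91.5% ± 0.156 in VE-PTPiKO IR, against 95.04% ± 0.307 in VE-PTPiKO sham. It made up 91.9% ± 0.720 in Control IR, against 94.95% ± 0.212 in Control sham. Slc20a1 made up 4.06% ± 0.214 in VE-PTPiKO IR, against 0.958% ± 0.150 in VE-PTPiKO sham, and 3.89% ± 0.690 in Control IR, against 1.15% ± 0.282 in Control sham. The IR and sham ranges of both shares were apart in each genotype. These shares sum to a whole, so a higher share of one gene lowers the others.

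The 6 genes also differed in how far replicates spread. Within groups the SD of log2 values was 0.0638 for Slc34a1, smaller than in all but 2.76% of 3846 genes with a mean of at least 1000 normalized reads. It was 0.0889 for Slc20a2, 0.156 for Xpr1, 0.182 for Slc34a3, 0.187 for Kl and 0.245 for Slc20a1, and 73.6% of those genes had a smaller SD than Slc20a1. Kl and Slc20a1 each lay above their group means in all 3 libraries with the most Malat1, and Slc34a3 lay below its group mean in all 3. For Kl the deviation was log2 0.273 in VE-PTPiKO IR replicate 3, 0.038 in VE-PTPiKO sham replicate 2 and 0.184 in Control sham replicate 2. For Slc20a1 it was 0.12, 0.208 and 0.168 in the same 3 libraries, and for Slc34a3 it was -0.126, -0.102 and -0.244. Some libraries with less Malat1 also lay well above their group means. Slc20a1 deviated by 0.294 in Control IR replicate 1 and by 0.206 in Control sham replicate 3, the library with the least Malat1. Kl deviated by 0.16 in VE-PTPiKO sham replicate 3. Without the 3 libraries with the most Malat1, the Kl difference after IR was log2 -0.23 ± 0.15 in VE-PTPiKO (limma adjusted p = 0.382) and 0.23 ± 0.11 in Control (limma adjusted p = 0.230). The interaction of Kl without them was log2 -0.46 ± 0.19 (limma adjusted p = 0.294), and that of Xpr1 was -0.52 ± 0.16 (limma adjusted p = 0.202). Slc20a1 without them still rose, by log2 2.09 in VE-PTPiKO and 1.90 in Control. The part of Malat1 or of what it marks was not tested.

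**Figure D4:**
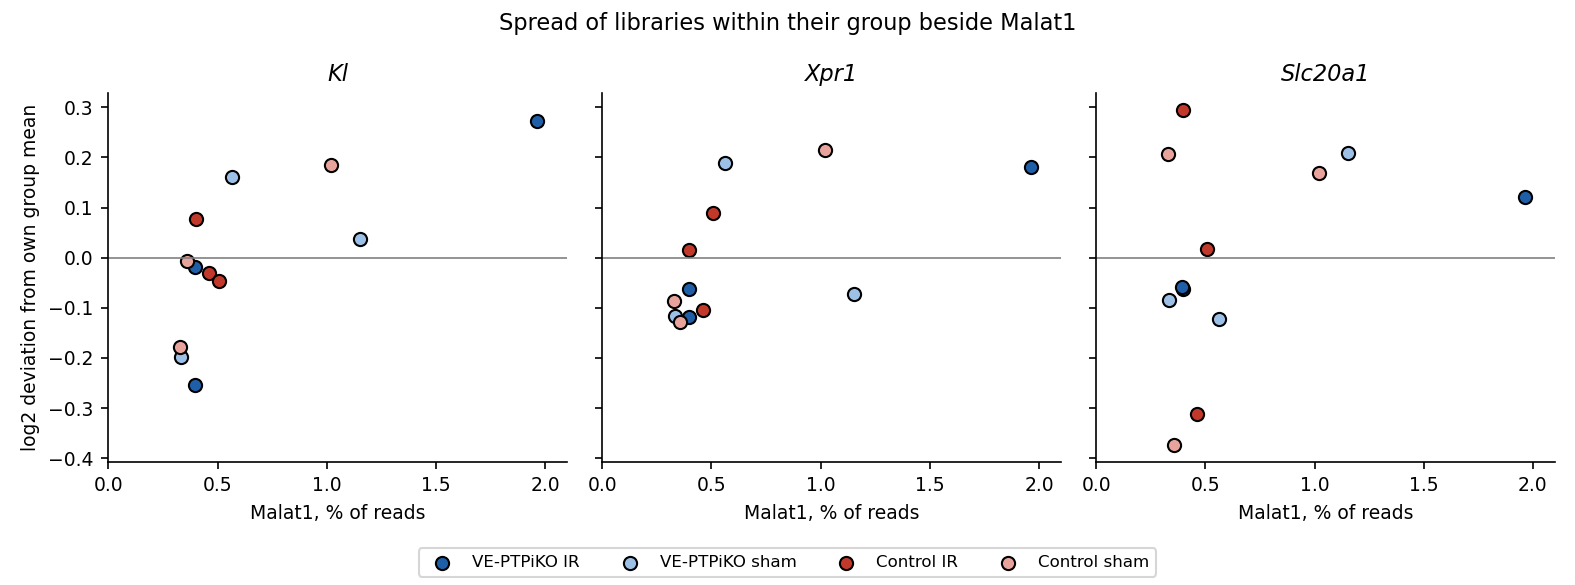
Log2 deviation of each library from its own group mean (y axis) against the share of reads taken by Malat1 (x axis) for Kl, Xpr1 and Slc20a1, coloured by group. Kl and Slc20a1 lie above 0 in the 3 libraries with over 1.0% Malat1, while Xpr1 lies above 0 in 2 of them and below 0 in VE-PTPiKO sham replicate 2.

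Genes whose pattern over the 12 libraries was nearest to each of the 6 were found by the mean absolute difference of centred log2 values, among 10387 genes with a mean of at least 100 normalized reads. The nearest to Slc20a1 were Clcf1 at 0.182, Adamts1 at 0.202 and Rell1 at 0.209, where Slc20a1 itself deviated from its mean by 0.964 on average. After IR the mean log2 value of Clcf1, a cytokine of the interleukin-6 family, was higher by 2.23 in VE-PTPiKO and 2.13 in Control. Adamts1, a secreted metalloproteinase, was higher by 1.84 in VE-PTPiKO and 1.74 in Control. For Slc34a1 the nearest genes were Tex2, Sft2d2 and Akt2, at 0.033 to 0.038 against an own deviation of 0.056, so nearness there means mostly that these genes vary little. Dis3l, Ap1s1 and Sepw1 were nearest to Slc34a3, Ttyh2, Reps2 and Nus1 to Slc20a2, Clcn3, Lats1 and Lrrc8a to Xpr1, and Ikbkb, Abhd2 and Sel1l to Kl. All these values share the same libraries and size factors.

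Other genes of phosphate handling were read from 6 lists with 40 entries, of which 39 were in the tables and 37 were tested. Over both genotypes 5 of the 37 rose and 7 fell after IR, where 10.2% of all tested genes rose and 8.05% fell, and the median log2 difference of the 37 was -0.098. Within VE-PTPiKO 2 rose and 3 fell, where 1.92% of all tested genes rose and 0.793% fell. In Control 5 rose and 5 fell, where 7.48% of all tested genes rose and 4.02% fell. Fgf23 was listed at 0 in every library, and Fgf23 and Pth, hormones made outside the kidney, were not tested.

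The vitamin D genes showed the largest differences of these lists. Cyp27b1, the enzyme of the proximal tubule that makes active vitamin D, had 35.3, 31.6 and 42.5 normalized reads in VE-PTPiKO IR, against 316, 432 and 212 in VE-PTPiKO sham. It had 31.0, 25.8 and 24.6 in Control IR, against 789, 174 and 118 in Control sham. All IR libraries lay below all sham libraries, and Control sham replicate 1 was far above the rest. Of all tested genes, 20.7% had IR and sham groups that did not overlap in VE-PTPiKO and 29.5% in Control. Cyp27b1 fell by 3.05 on the log2 scale in VE-PTPiKO (8.27-fold lower, limma adjusted p = 0.00105) and fell by 3.18 in Control (9.07-fold lower, limma adjusted p = 0.00336). Without Control sham replicate 1 the Control value of Cyp27b1 was log2 -2.37 (limma adjusted p = 0.000613).

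Cyp24a1, which breaks active vitamin D down, had 1409.6, 1087 and 889 normalized reads in VE-PTPiKO IR, against 2132, 2224 and 3958 in VE-PTPiKO sham. It had 903.5, 975.2 and 1089 in Control IR, against 2331, 3730.4 and 5978 in Control sham, with IR below sham throughout. IR and sham groups lay apart for 20.7% of tested genes in VE-PTPiKO and for 29.5% in Control. Cyp24a1 fell by 1.26 in VE-PTPiKO (limma adjusted p = 0.0379) and fell by 1.92 in Control (limma adjusted p = 0.000835). Rxra, the partner of the vitamin D receptor on DNA, fell by 0.80 in VE-PTPiKO (limma adjusted p = 0.0453) and fell by 0.50 in Control (limma adjusted p = 0.0153). Vdr, the receptor itself, stood at log2 -0.17 in VE-PTPiKO (limma adjusted p = 0.721) and -0.02 in Control (limma adjusted p = 0.939).

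Of 4 scaffold genes that hold the SLC34 carriers at the brush border, Ezr, which links them to actin, rose and Slc9a3r2 fell over both genotypes. Of all tested genes 10.2% rose and 8.05% fell there. Ezr had 14189, 15616 and 16139 normalized reads in VE-PTPiKO IR, against 8702, 8993 and 9878 in VE-PTPiKO sham. In Control IR it had 18328, 17797 and 15693, against 7402, 8566 and 6263 in Control sham, and no IR library overlapped a sham library. The same held for 20.7% of tested genes in VE-PTPiKO and for 29.5% in Control. The rise of Ezr was 1.67-fold in VE-PTPiKO (limma adjusted p = 0.0228) and 2.35-fold in Control (limma adjusted p = 0.000199). Slc9a3r2, also called NHERF2, fell by 0.39 on the log2 scale over both genotypes (limma adjusted p = 0.0132). Slc9a3r1, which encodes the NHERF1 scaffold of NaPi-IIa, stood at log2 0.26 over both genotypes (limma adjusted p = 0.0645).

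Among 8 genes of the hormone receptors and of klotho shedding, 1 passed in each genotype and over both genotypes. Of all tested genes 2.71% passed in VE-PTPiKO, 11.5% in Control and 18.3% over both genotypes. Fgfr2 rose 1.71-fold in VE-PTPiKO (limma adjusted p = 0.0188) and 1.57-fold in Control (limma adjusted p = 0.0138). Fgfr1, whose protein pairs with klotho to bind FGF23, stood at log2 0.03 over both genotypes (limma adjusted p = 0.926), and Pth1r, the parathyroid hormone receptor, at -0.05 (limma adjusted p = 0.802). The sheddases that cut klotho from the cell surface stood at log2 -0.10 for Adam10 (limma adjusted p = 0.494) and -0.04 for Adam17 (limma adjusted p = 0.875) over both genotypes.

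Among hormones and enzymes of phosphate balance, 2 of 8 rose and 1 fell over both genotypes, where 10.2% of all tested genes rose and 8.05% fell. Galnt3, whose enzyme glycosylates and protects FGF23, rose by log2 0.54 (limma adjusted p = 0.00156), and Fam20c, the kinase that marks FGF23 for cleavage, by 0.53 (limma adjusted p = 0.00159). Enpp1, which makes pyrophosphate, fell by 0.30 (limma adjusted p = 0.0228). Of 6 genes around XPR1, Ip6k1, a kinase that makes the inositol pyrophosphates that XPR1 senses, fell by 0.36 over both genotypes (limma adjusted p = 0.00301). Kidins220, the XPR1 partner, stood at log2 -0.24 (limma adjusted p = 0.316).

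Among 7 other phosphate carriers 1 rose and 1 fell over both genotypes, where 10.2% of all tested genes rose and 8.05% fell. Slc34a2, the SLC34 carrier of lung and gut, had 208, 145 and 131 normalized reads in VE-PTPiKO IR, against 91.8, 57.4 and 70.4 in VE-PTPiKO sham. It had 202, 245 and 136 in Control IR, against 70.8, 62.9 and 104 in Control sham. The IR libraries of Slc34a2 lay above its sham libraries in both genotypes, at a level far below that of Slc34a1. Such separation was seen for 20.7% of tested genes in VE-PTPiKO and 29.5% in Control. Slc34a2 rose 2.30-fold over both genotypes (limma adjusted p = 0.000816). Slc37a4, the glucose-6-phosphate carrier that exchanges it for phosphate, fell by 0.71 on the log2 scale (limma adjusted p = 0.000135), and Slc25a3, the mitochondrial phosphate carrier, stood at 0.04 (limma adjusted p = 0.851).

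**Figure D5:**
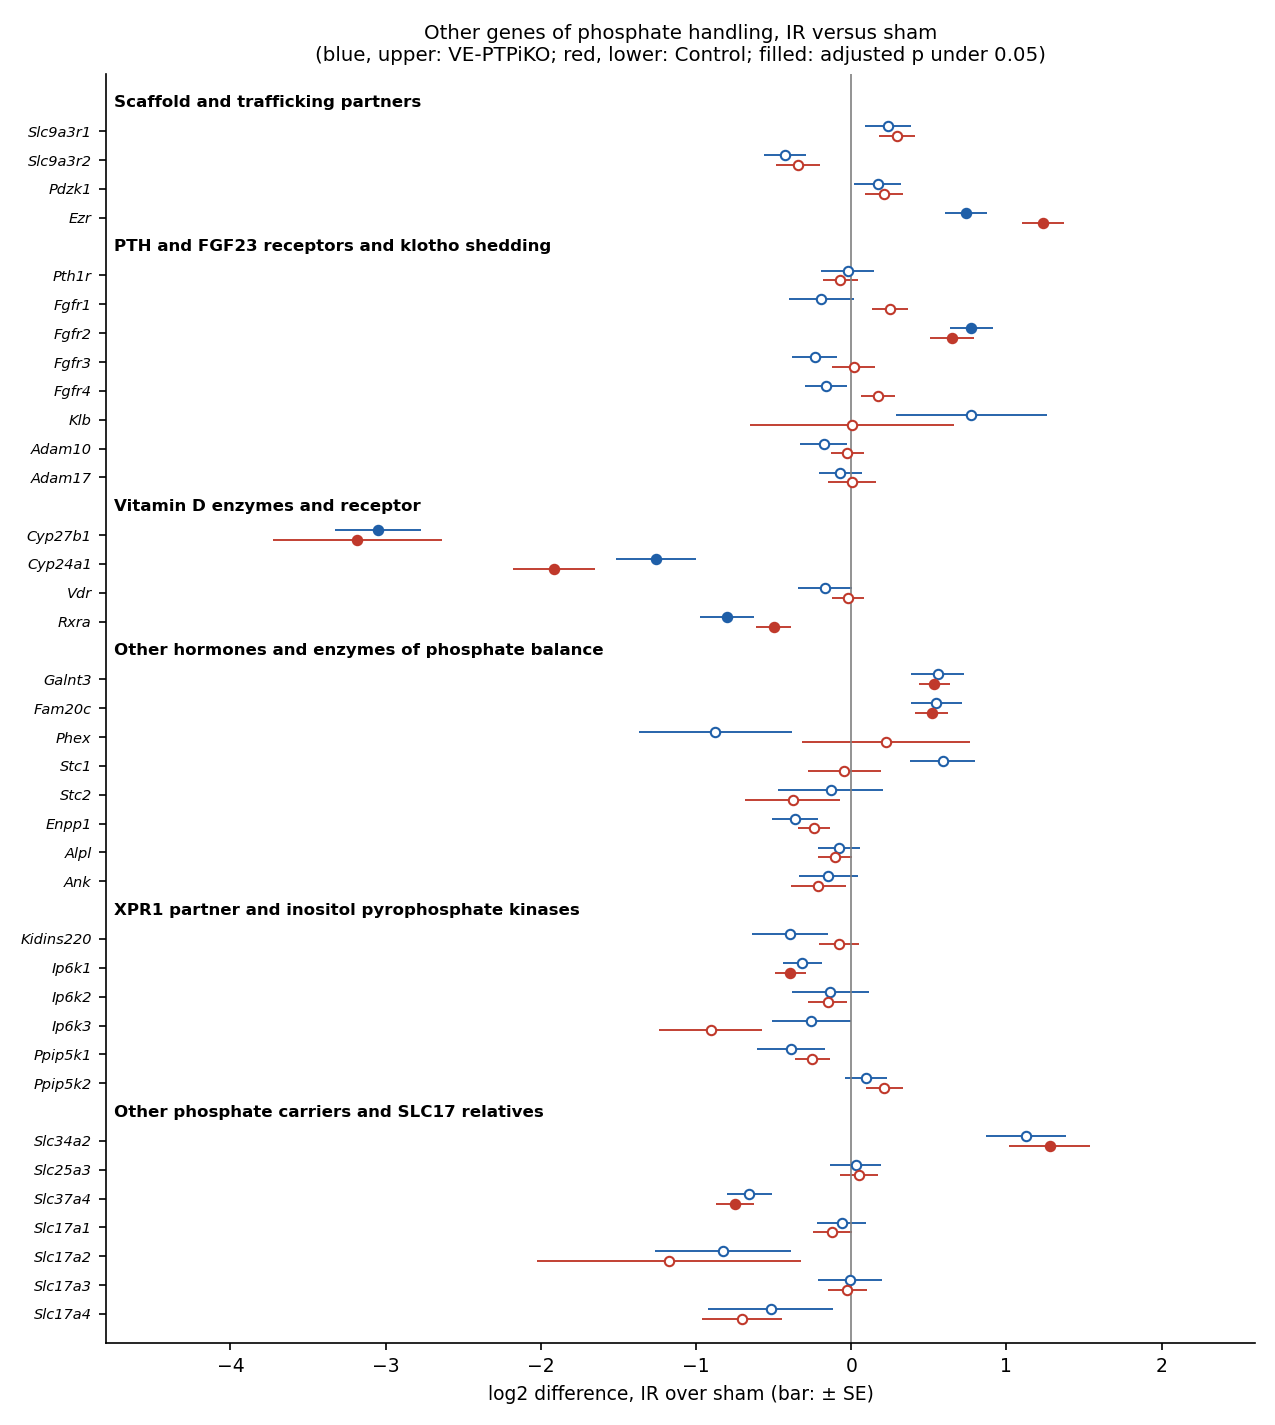
Log2 differences of IR over sham (bars: SE) for the 37 tested genes of the 6 phosphate handling lists, with VE-PTPiKO above Control for each gene; filled points passed a limma adjusted p under 0.05. Cyp27b1 and Cyp24a1 lie farthest to the left among filled points, and Ezr and Fgfr2 are filled on the right in both genotypes.

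Calls for single list genes within a genotype often changed when 1 library was left out. In VE-PTPiKO, leaving out IR replicate 3 took no call from a named list gene and added Galnt3, Enpp1, Slc34a2 and Slc37a4. Over all genes limma called 445 in VE-PTPiKO, against 1925 without IR replicate 3, 194 without IR replicate 1 and 168 without IR replicate 2. Without sham replicates 1, 2 and 3 the counts were 412, 170 and 126, in that order. In VE-PTPiKO, Ezr and Rxra each lost the call without IR replicate 1 or 2 or without any sham replicate, with an adjusted p up to 0.127 for Ezr and 0.238 for Rxra in limma. Rxra in VE-PTPiKO also lost it in edgeR's quasi-likelihood test (adjusted p = 0.0562) and without the low-value filter (limma adjusted p = 0.0500013). Fgfr2 and Cyp24a1 lost it without IR replicate 1 or 2 or sham replicate 2 or 3 (limma adjusted p up to 0.128 for Fgfr2 and 0.140 for Cyp24a1). In Control, Rxra lost it without IR replicate 1 or 2, Fgfr2 without IR replicate 2 or sham replicate 3, Fam20c without IR replicate 2 or 3 and Slc34a2 without IR replicate 2. Ip6k1 lost it in Control without any IR replicate and without sham replicate 1 or 3. Over both genotypes Enpp1 was the only one of the 12 named list genes to lose its call, without VE-PTPiKO IR replicate 1, VE-PTPiKO sham replicate 3, Control IR replicate 2 or Control sham replicate 2 (limma adjusted p up to 0.0667).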

How the data were processed

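Reads were mapped and counted by the authors with STAR and HTSeq on mm10 and compared with DESeq2, after FastQC, per the submitters' processing notes; versions and the strand setting are not given in the sources read. Per the labels' protocols, Trizol RNA went into TruSeq RNA libraries. 1 table was deposited for each genotype. Its library columns hold normalized signal, and multiplying the deposited signal by 1 size factor per library gave whole reads for 100.0% of values within 0.02. The deposited log2 differences, their standard errors, the deposited p-values and the deposited Wald score are the authors' own statistics, per the file headers. Of 23493 lines per table, 23286 genes were kept.

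Within each table, log2(value + 1) was fitted with limma 3.58.1 with a trend, for genes with a mean of at least 1, and p-values were adjusted by Benjamini-Hochberg over all genes tested. Contrasts over both tables used the recovered read counts, divided by median-of-ratios size factors over 12 libraries (14828 genes), since the authors normalized the tables separately. edgeR 4.0.16 and DESeq2 1.42.0 on recovered reads, TMM, other filters and pseudocounts, array weights, a replicate block and leaving out libraries were the alternatives. The genes, lists and list genes named (up to 4 per list past the threshold, by size) were chosen with earlier results of these data known. Lengths came from GENCODE M21 and promoter windows from RefSeq. The 2 single-cell samples were not analysed here.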

Additional observations from a re-analysis of the deposited data

How the results depend on the processing

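The side of the threshold was the same in 737 of 738 combinations of gene, comparison and alternative for the 6 genes. With limma array weights 2 of the 6 genes passed in VE-PTPiKO IR versus sham in place of 1, the added gene being Xpr1. In all, 3879 genes passed with these weights against 445. Without VE-PTPiKO IR replicate 3, 1925 genes passed. The chi-square per gene between read counts of VE-PTPiKO IR libraries was 11.3 for replicates 1 and 2. It was 82.7 for replicates 1 and 3 and 71.1 for 2 and 3, against at most 48.5 within the other groups. The cause was not tested. Slc20a1 ran from log2 1.98 to 2.15 over the alternatives in VE-PTPiKO, 1.63 to 1.97 in Control and 1.83 to 2.01 over both genotypes. Leaving out 1 library at a time kept the count at 1 of 6 in these comparisons and at 0 of 6 for the interaction and both genotype contrasts. Values near 0 had no stable sign: the Control difference of Slc34a1 kept its sign in 11 of 17 alternatives. DESeq2 called 1014 genes in VE-PTPiKO IR versus sham where limma called 445.

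Replicate numbers gave no steady sign of pairing. Deviations of same-numbered IR and sham libraries correlated at 0.463, -0.287 and 0.121 in VE-PTPiKO and at 0.0932, -0.0239 and -0.109 in Control. VE-PTPiKO IR replicate 3 and VE-PTPiKO sham replicate 2, both high in Malat1, also correlated at 0.463. So few correlations cannot settle whether samples were paired. With a replicate block Slc20a1 stood at log2 2.05 (limma adjusted p = 0.000415) in VE-PTPiKO and 1.82 (limma adjusted p = 0.000121) in Control, 1 of 6 genes passed in each, and 604 genes passed in all in VE-PTPiKO and 1805 in Control. With 3 libraries a group, the median SE of a log2 difference over all genes was 0.223 in VE-PTPiKO and 0.175 in Control, so differences of that size could not be told from 0. For the 12 named list genes, 36 of 948 combinations lost the call, 20 gained it, and 891 stayed on the same side of the threshold, with any change of sign smaller than 1 SE. The remaining 1 was the interaction of Cyp27b1 without Control sham replicate 1, at log2 -0.68 in place of 0.13, with no call in either.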
